A study of Mus musculus with 15 samples.

Results

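The liver library of a mouse panel of small RNA was set against the 11 other adult libraries of the same series. It is 1 of 15 libraries, and every library whose title does not say embryo was taken as adult, which leaves brain, eye, heart, kidney, lung, salivary gland, smooth muscle, spinal cord, spleen, stomach and testis on the other side. The RNA came from a commercial panel, and the labels give no strain, age, sex, treatment or number of animals for any tissue. Small RNAs were size-selected and ligated to adapters with randomized ends (AQ-seq), a procedure meant to lower ligation bias. The 3 embryo libraries, titled 11-day, 15-day and 17-day embryo, were not part of the ranking and serve as a separate readout. For the last of them the source field of the labels gives day 15, and the title was used.

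A miRNA gene is transcribed as a hairpin, from which Drosha and Dicer cut a short duplex, with a strand from the 5p arm and a strand from the 3p arm. The strand that stays in Argonaute pairs through its seed, bases 2 to 8, with sites in messenger RNAs. The liver is known for miR-122, a hepatocyte miRNA that acts on genes of cholesterol and fatty acid metabolism, and for miR-192 and miR-194, which liver shares with gut and kidney epithelium.

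The sequences below, from RefSeq on GRCm38.p6 (the assembly that mm10 stands for) and with the seed in capitals, belong to the miRNAs whose levels set liver apart and to their near copies, which the results compare.
miR-192-5p: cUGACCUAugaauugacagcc
miR-215-5p: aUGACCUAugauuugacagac
miR-194-5p: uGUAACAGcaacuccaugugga
miR-194-2-3p: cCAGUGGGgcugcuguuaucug
miR-194-1-3p: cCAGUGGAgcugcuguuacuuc
miR-802-5p: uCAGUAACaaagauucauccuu
miR-193a-3p: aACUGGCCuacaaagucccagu
miR-193b-3p: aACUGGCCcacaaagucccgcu
miR-101b-3p: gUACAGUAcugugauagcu
miR-101a-3p: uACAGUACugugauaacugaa

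Counted from the 5′ end of the first-named miRNA, miR-192-5p and miR-215-5p differ by C1A, A12U and C20A and share their seed. The pair miR-193a-3p and miR-193b-3p differs by U9C, A20G and G21C and shares its seed too. Position 1 of miR-101a-3p aligns with position 2 of miR-101b-3p, after which they differ only by A16G over the aligned stretch, so that their annotated seeds are shifted by 1 base. The mature miR-194-5p is the same from both of its genes, whereas the 3p strands of the genes differ and can be told apart. How the authors' counting assigned reads to such near copies is not stated in the labels, so their levels are less certain than those of miRNAs without one.

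Levels are given as CPM, the share of a library's reads that carry a name, scaled to 1000000 reads. The liver library held 1736220 reads and 753 names, and the other adult libraries held 148052 reads (testis) to 3161463 (brain). A name with no read in liver could stand for up to 3 reads, or 1.73 CPM, against 20.3 CPM in testis and 3.25 CPM or less in the others. With 1 library per tissue no difference has a replicate check, and no p-value is given, since an exact permutation of 1 library against 11 cannot go below 0.083. Intervals are exact 95% intervals for counting error only, and reads copied by PCR are not independent molecules. In bulk tissue, fewer cells of a type and less RNA per cell cannot be told apart.

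The liver library carried the markers of its label. miR-122-5p stood at 311546 CPM in liver, 31.2% of its reads, against 15.2 CPM in brain to 2776 CPM in testis among the others, with a median of 107.5 CPM. Its partner strand miR-122-3p stood at 9698 CPM in liver, against 0.949 CPM in brain to 108.1 CPM in testis. miR-192-5p had 20587 CPM and miR-194-5p 21562 CPM in liver, against medians of 190.1 and 469.3 CPM in the others. The libraries do not overlap for either miR-122 strand, while smooth muscle lay above liver for both other markers, with 35277 and 147721 CPM.

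Of 579 names with a mean of at least 10 CPM over the 12 adult libraries, 3 (0.518%) had a liver share at least 2-fold over the highest of the 11 others. These were miR-122-5p, 112-fold over testis (95% interval 102 to 124), miR-122-3p, 89.7-fold over testis (55.2 to 157), and miR-101b-3p, 6.08-fold over spleen (5.92 to 6.25). The testis values rest on 411 and 16 reads. Without testis, the ratios were 170-fold over stomach for miR-122-5p and 220-fold over spleen for miR-122-3p. Without kidney, miR-193a-3p (2.30-fold) and miR-455-5p (2.45-fold) joined them for 5 names in all. Without both smooth muscle and testis there were also 5, with miR-802-5p (2.09-fold) and miR-5100 (2.98-fold) added. The same rule, applied to each of the other 11 libraries, found 1 name in lung to 19 in spinal cord, and 109 in testis, where 1 read already stands for several CPM.

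**Figure D1:**
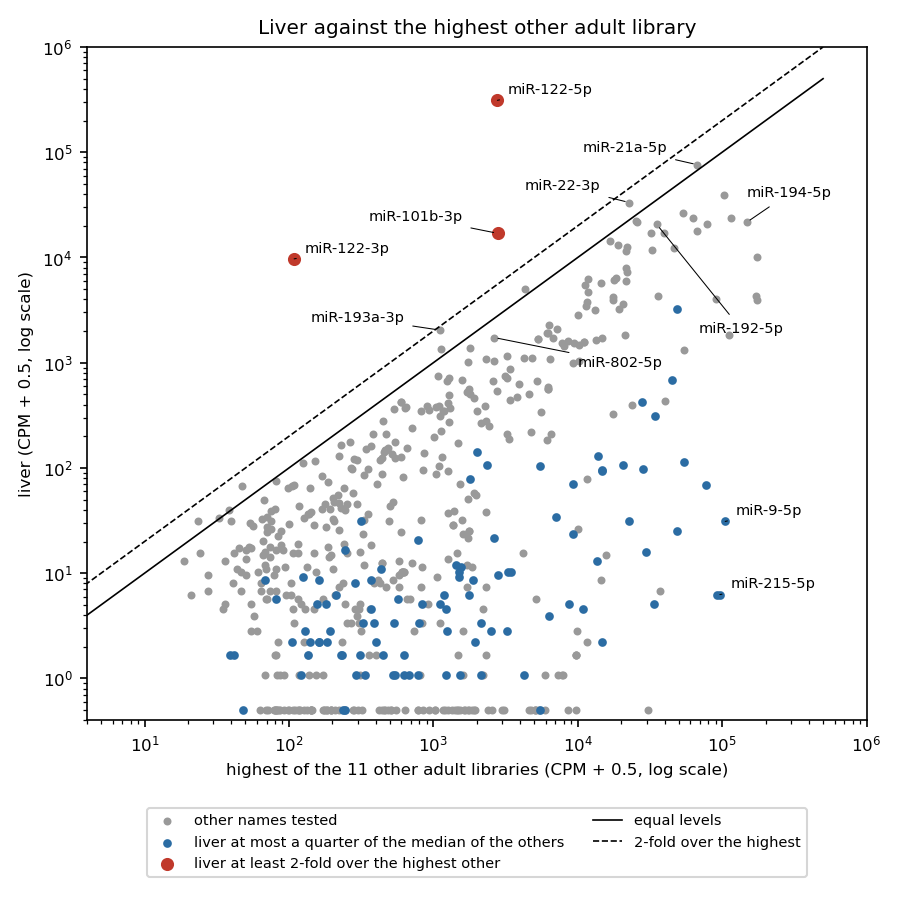
Level of each of the 579 names in liver (vertical) against its level in the highest of the 11 other adult libraries (horizontal), both as CPM + 0.5 on log scales. The 3 red points, miR-122-5p, miR-122-3p and miR-101b-3p, lie above the dashed 2-fold line, and the blue points are the 100 names at or below 0.25 times the median of the others.

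The reads of miR-122-5p took so large a part of the liver total that they lowered the share of every other liver miRNA. With these reads left out of all totals, the median log2 ratio of liver to the median of the others shifted by 0.54, from -0.81 to -0.27. It was taken over the tested names that had a ratio. Liver ranked highest of the 12 libraries for 12 of the 579 names (2.07%) on total reads and for 27 without miR-122-5p. The names at least 2-fold over the highest library then numbered 6 (1.04%). miR-193a-3p (2.68-fold over kidney), miR-22-3p (2.13-fold over kidney) and miR-6538 (2.10-fold over kidney) joined the 3 above. TMM scaling also gave 6, but with miR-3963 in the place of miR-22-3p, for which liver was 1.33-fold over heart.

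miR-101b-3p, from an intron of the RNA processing gene Rcl1 on chromosome 19 (hairpin at chr19:29135279-29135375, plus strand), was the only one of the 579 tested names outside the miR-122 hairpin at least 2-fold over every other adult library on total reads. The miR-101 family is known for repressing the histone methyltransferase gene Ezh2. miR-101b-3p had 16958 CPM in liver, against 695 CPM in stomach, a median of 1901 CPM and 2789 CPM in spleen among the others. The near copy miR-101a-3p, from an exon of the long noncoding RNA gene E130102H24Rik on chromosome 4, had 11591 CPM in liver, against 3063 to 21506 CPM in the others, with kidney and salivary gland highest. Liver was thus within the range for miR-101a-3p and far above it for miR-101b-3p.

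Of the reads of both miR-101 names, miR-101b-3p took 59.4% in liver, against 6.70% in kidney to 27.2% in spinal cord. The embryo libraries came nearest to liver in this share, with 53.9%, 47.6% and 51.4% at 11, 15 and 17 days. Their levels were lower than in liver, since miR-101b-3p stood there at 2308, 2682 and 2811 CPM and miR-101a-3p at 1974, 2947 and 2655 CPM. The partner strand miR-101b-5p lay under the minimum mean level. It had 25 reads or 14.4 CPM in liver, against at most 5.42 CPM, from 5 reads in stomach, in the others.

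**Figure D2:**
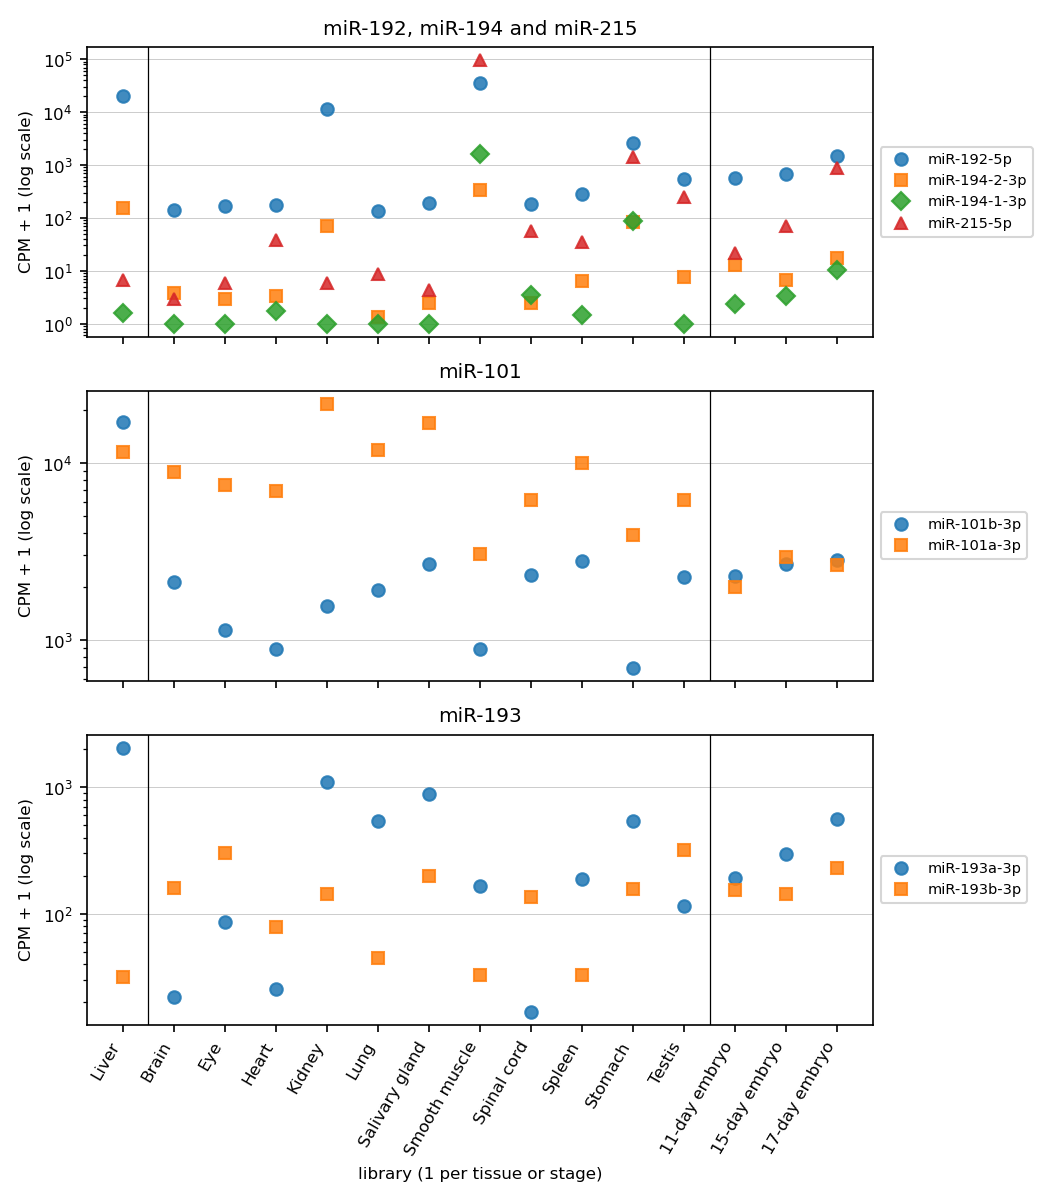
Levels of near copies in the 15 libraries, as CPM + 1 on log scales, with liver left, the 11 other adult libraries in the middle and the embryo stages right. Liver is high for miR-192-5p. For miR-215-5p and miR-194-1-3p smooth muscle and stomach stand highest, and liver is low, with brain, eye, kidney and salivary gland lower still. Liver lies above every other library for miR-101b-3p and has the widest gap of miR-193a-3p over miR-193b-3p on the log scale.

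At least 4-fold over the median of the others were 22 of the 579 names (3.8%), and 34 (5.87%) without miR-122-5p in the totals. Of the 22, liver ranked highest of the 12 libraries for 5, second for 8 and lower for 9, so that for most of them another tissue was higher. A total of 3 of them rested on fewer than 20 liver reads. None of the 22 passed the minimum level through liver alone. RefSeq gave sequences for 19 of the 22, and these 19 had 19 different seeds. For miR-122-5p, miR-122-3p and miR-1a-2-5p it gave none, so a seed that these share with another of the 22 could not be seen.

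The miRNAs linked to liver and gut epithelium made up 6 of the 22, out of 9 members of that list, against 3.8% of all tested names. The count was 6 on every scaling tried. These 6 are strands of miR-192, miR-194 and miR-802 and so are not independent. The list holds the markers miR-192-5p and miR-194-5p and was chosen with earlier results of these data known, so the count is a description only. miR-192-5p was 108-fold over the median of the others (interval 98.1 to 120), with 20587 CPM in liver, against 11396 CPM in kidney, 2555 CPM in stomach, 35277 CPM in smooth muscle and 132 to 547 CPM in the other 8. Its partner miR-192-3p had 370.9 CPM in liver, against 1.91 to 637.1 CPM in the others, and miR-194-5p was 45.9-fold over the median (43.2 to 48.9). Liver was second to smooth muscle for all of these.

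The 3p strands of miR-194 tell its genes apart. Mir194-2 lies 115 bases from Mir192 on chromosome 19 (chr19:6264643-6264728, plus strand). Mir194-1 lies 195 bases from Mir215 on chromosome 1 (chr1:185313319-185313385, plus strand), in an intron of 2010103J01Rik and opposite an intron of the isoleucyl-tRNA synthetase gene Iars2. In liver miR-194-2-3p had 263 reads and miR-194-1-3p 1 read, so the chromosome 19 gene took 99.6% (97.9 to 99.99). Among the other adult libraries with at least 20 such reads, it took 100% of 98 reads in kidney, 49.0% of 155 in stomach and 17.6% of 3355 in smooth muscle. Liver and kidney do not differ beyond their intervals, and both lie far above stomach and smooth muscle.

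miR-215-5p, the neighbour of miR-194-1, followed the same division. It had 10 reads or 5.76 CPM in liver, against 96410 CPM in smooth muscle, 1427 CPM in stomach and 1.90 to 243 CPM in the other 9, and was at 0.17 times their median (0.24 without miR-122-5p in the totals, 0.27 with TMM). Of the reads of miR-192-5p and miR-215-5p, which share a seed, miR-192-5p took 99.97% in liver, 99.96% in kidney and 26.8% in smooth muscle. The share was also high, from far fewer reads, in lung (94.5%), eye (97.3%), salivary gland (98.3%) and brain (98.7%). The median of the other adult libraries was 88.9%. The library labelled smooth muscle therefore carried both gene pairs, and liver reads came almost wholly from the chromosome 19 pair.

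miR-802, a miRNA studied in mouse liver for its effect on glucose metabolism, also ranked second. miR-802-5p had 1735 CPM in liver, against 2626 CPM in smooth muscle, 829 CPM in stomach, 695 CPM in spleen, 295 CPM in eye, 236 CPM in kidney and 1.53 to 33.8 CPM in the other 6. Without smooth muscle, liver was 2.09-fold over the highest of the rest. Its partner miR-802-3p had 112 reads or 64.5 CPM in liver, against 0 to 97.8 CPM in the others. It was 192-fold over the median, a value set by a single read in lung, with an interval of 33.7 to 7635. Mir802 lies on chromosome 16 (chr16:93369720-93369816, plus strand), within no gene of the annotation other than its own.

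miR-193a and miR-193b, which share a seed, went opposite ways. The miR-193 family is known as a repressor of growth in tumour cells. miR-193a-3p had 2041 CPM in liver, the highest of the 12 libraries, against 15.9 CPM in spinal cord, a median of 164.9 CPM and 1108 CPM in kidney. It was 12.4-fold over the median (11.0 to 14.0) and 1.84-fold over kidney (1.74 to 1.96), and without kidney it was 2.30-fold over salivary gland. The partner strand miR-193a-5p was 5.46-fold over the median on total reads. Its 110.6 CPM in liver lay under stomach (123.6 CPM) and kidney (112.7 CPM). miR-193b-3p had 30.5 CPM in liver, against 31.8 CPM in smooth muscle, a median of 141.2 CPM and 317.5 CPM in testis. On total reads liver was thus highest for miR-193a-3p and lowest for miR-193b-3p, although smooth muscle, at 55 reads, and spleen, at 71, lay close to the 53 reads of liver for miR-193b-3p. Without miR-122-5p in the totals, miR-193b-3p stood at 44.3 CPM in liver, above smooth muscle, spleen and lung, and at 0.31 times the median. Liver was then highest for both miR-193a strands.

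miR-193a-3p took 98.5% of the reads of both names in liver, against 10.6% in spinal cord to 92.4% in lung. The neighbouring miR-365-3p, the same from Mir365-2 at 14365 bases from Mir193a on chromosome 11 and from Mir365-1 at 4238 bases from Mir193b on chromosome 16, had 1374 CPM in liver, against 119 to 1804 CPM in the others. Its rare 5p strands name the gene: miR-365-2-5p had 9 reads and miR-365-1-5p none in liver. In kidney these were 21 and 1 reads, and at such depth the libraries cannot be ranked. Of the 7 members of the miR-193 and miR-365 list, 4 were tested. On total reads 2 stood at least 4-fold over the median, against 3.8% of all tested names, and 1 at or below 0.25 times it, against 17.3%. Without miR-122-5p in the totals these were 3, with miR-365-3p at 5.05-fold, and 0.

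**Figure D3:**
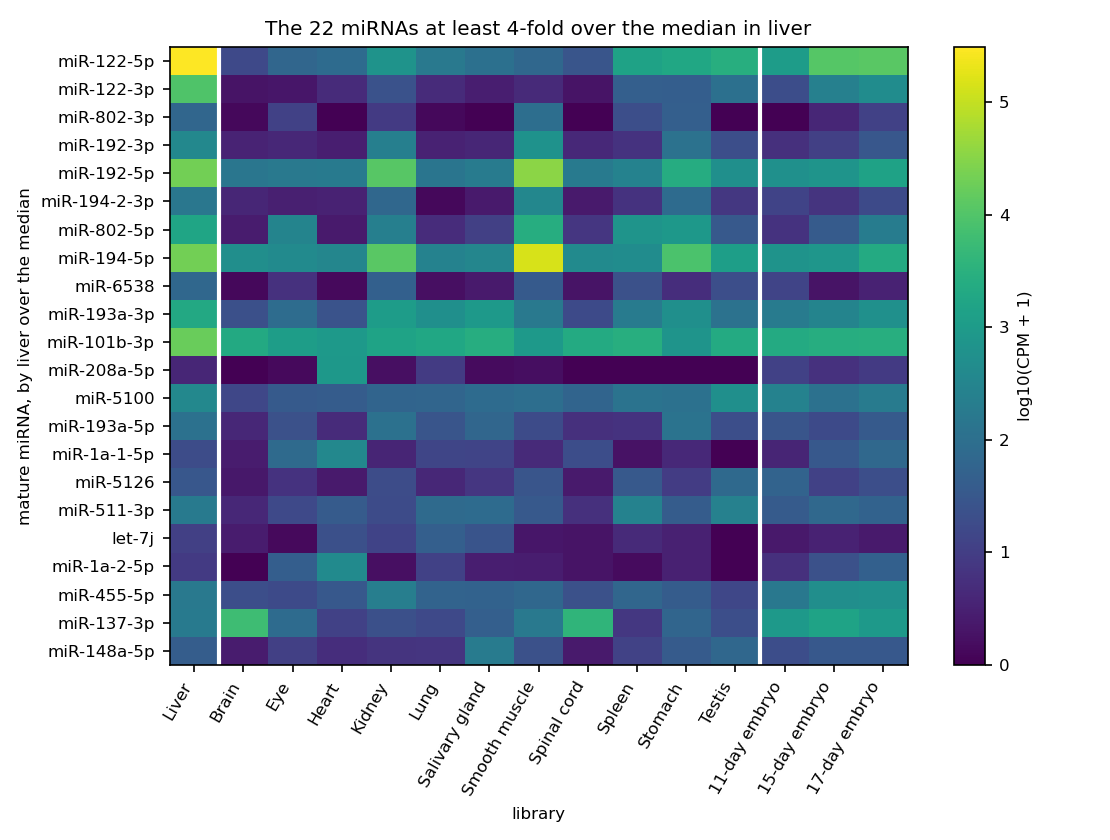
Levels, as log10(CPM + 1), of the 22 miRNAs whose liver share was at least 4-fold over the median of the 11 other adult libraries, in liver (left of the first white line), the other adult libraries and the embryo stages (right of the second). Liver is the brightest column for both miR-122 strands, and it shares the next rows with smooth muscle, kidney and stomach, and the miR-802 rows also with spleen and eye.

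The most abundant liver miRNAs after miR-122-5p were mostly common to many tissues. miR-21a-5p, a miRNA known from proliferation and injury, had 76116 CPM or 7.61% of reads in liver, against 4354 CPM in brain, a median of 29562 CPM and 67266 CPM in spleen. Liver was highest, by 1.13-fold (1.12 to 1.14) over spleen. miR-22-3p, known from cardiac and metabolic tissue, had 33292 CPM in liver, against 6820 CPM in spinal cord, a median of 9191 CPM and 22717 CPM in kidney, a ratio of 1.47 (1.45 to 1.49) over kidney. Its partner miR-22-5p had 1351 CPM in liver, against 241 to 1129 CPM in the others. Both strands of miR-22 were thus highest in liver on total reads, by less than 2-fold.

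miR-148a-3p had 23730 CPM in liver, against 848 CPM in brain, a median of 6315 CPM and 116001 CPM in salivary gland. Without salivary gland, liver was 2.28-fold over the highest of the rest. miR-130a-3p, known from vessels and blood progenitors, had 5036 CPM in liver, against 793 CPM in salivary gland to 4328 CPM in kidney. The erythroid miR-451a had 39282 CPM in liver, within the 4487 to 102603 CPM of the others. Of the other top 10 names, miR-29a-3p, miR-26a-5p, let-7f-5p and let-7a-5p stood at 26432, 23606, 22349 and 21780 CPM in liver. These were 0.550 (miR-26a-5p) to 1.15 (let-7f-5p) times the medians of the others.

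Others of the 22 names are less well known from liver. miR-6538 had 67.4 CPM in liver, against 0.316 to 46.6 CPM in the others, and 117 reads behind it. miR-5100 had 358.8 CPM in liver, against 13.6 to 533.6 CPM in the others, with testis highest from 79 reads. miR-455-5p, known from cartilage, had 164.2 CPM in liver, against 13.5 to 228.2 CPM in the others, and miR-511-3p, from a gene inside the macrophage receptor gene Mrc1, had 175.1 CPM in liver, against 3.16 to 265.5 CPM. The neuronal miR-137-3p had 184.3 CPM in liver, against a median of 44.6 CPM and 6087 CPM in brain. Liver led this set only for miR-6538. The 22 also held let-7j, miR-5126 and the muscle hairpin strands miR-1a-1-5p, miR-1a-2-5p and miR-208a-5p, and liver led for none of these.

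The liver miRNAs that the mean level of 10 CPM kept out included miR-1948, named here after its values were seen. miR-1948-3p had 141 reads or 81.2 CPM in liver, against at most 1.97 CPM, from 5 reads, in any other adult library. That was 41.2-fold over the highest, with an interval from 17.2 upward. miR-1948-5p had 87 reads or 50.1 CPM in liver, against at most 4 reads in the library where it was highest, a ratio of 27.8 with an interval from 10.5 upward. Both strands of this hairpin were thus far higher in liver than in the other 11 adult libraries, at a level far under that of miR-122. A total of 9 such names lay under the minimum mean level, and apart from miR-1948 and miR-6240, with 90 reads, they had at most 25 liver reads.

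At or below 0.25 times the median of the others were 100 of the 579 names (17.3%), and 63 (10.9%) without miR-122-5p in the totals. All 63 were among the 100. The same rule found 9 names in testis to 84 in spleen. Testis and stomach, which had 11, are the shallowest libraries. An unread name, set to 3 reads, stands there at 20.3 and 3.25 CPM, so fewer names can be called low. On total reads liver was lowest of the 12 libraries for 101 names (17.4%), and 55 of these were among the 100. Of the 100, 29 were highest in brain, 25 in spinal cord, 17 in testis and 12 in eye. A further 96 tested names, 73 of them without a liver read, could not be given a ratio, since liver and the median of the others were both at or under the value of 3 reads.

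Of the 15 names with the lowest ratios, 7 were highest in brain, 3 in spinal cord, 4 in eye and 1 in stomach. A name with no liver read was set to 3 reads and so ranked above where 1 read would place it. None of the 15 was such a name. miR-129-2-3p had 1 read or 0.576 CPM in liver, against 3.43 to 4229 CPM in the others, and was at 0.0050 times the median (0.00013 to 0.029). The neural miR-9-5p had 30.5 CPM in liver, against 93.9 CPM in lung to 105010 CPM in brain, and miR-9-3p 1.73 CPM, against 14.8 to 14764 CPM. miR-204-5p of pigment epithelium had 4.61 CPM in liver, against 17.5 CPM in lung to 33867 CPM in eye. miR-138-5p, miR-218-5p and miR-129-5p, known from neurons, stood at 0.029, 0.043 and 0.028 times the median, and miR-135b-5p, from 1 liver read, at 0.012 times.

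miR-672-5p had 2 reads or 1.15 CPM in liver, against 4.50 CPM in spleen, a median of 94.9 CPM and 626.8 CPM in stomach. miR-582-5p was 0.035 times the median, with 8.06 CPM in liver, against 33.3 CPM in spleen, a median of 231 CPM and 370.7 CPM in brain, and miR-582-3p was 0.032 times the median. In the others miR-582-5p spanned little more than a single order of magnitude, with liver well under all of them. The sensory miR-183-5p had 15.6 CPM in liver, against 3.81 CPM in heart to 29906 CPM in eye. The rest of the 15, miR-708-5p, miR-125b-1-3p and miR-369-5p, stood at 0.038, 0.039 and 0.044 times the median, the last from 1 liver read with an interval of 0.0010 to 0.30.

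Some lists describe cells that a liver sample can hold, and the others cover other tissues, other miRNA groups or an imprinted region. Each is set beside a median log2 ratio of -0.81 over the 483 tested names that had a ratio on total reads. The other 96 could not be called high or low, yet they count among all tested names in the shares that follow. Of all tested names, 3.8% stood at least 4-fold over the median and 17.3% at or below 0.25 times it on total reads, and 5.87% and 10.9% without miR-122-5p in the totals. For the miR-200 family of epithelium, bile duct epithelium included, all 5 members were below the median and 4 at or below 0.25 times it, with a list median of -2.61. Without miR-122-5p in the totals 3 were, miR-200b-3p being at 0.28 times the median, and with TMM 1 was, miR-200c-3p. Their sum was 996 CPM in liver, against 72.7 CPM in spinal cord to 77776 CPM in salivary gland. miR-200c-3p had 94.5 CPM in liver, against a median of 1008 CPM, and miR-141-3p had 92.7 CPM, against 567 CPM. Heart and spinal cord, at 5.34 to 25.5 CPM for each member, were lower still.

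Blood and vessel markers lay, in sum, within the range of the other tissues. The endothelial strands miR-126a-3p and miR-126a-5p had 18011 and 7929 CPM in liver, against 5346 to 67471 and 1156 to 21678 CPM. The 5 erythroid names summed to 46051 CPM in liver, against 5617 CPM in smooth muscle to 131859 CPM in lung. The 5 leukocyte names summed to 7187 CPM in liver, against 1342 CPM in eye to 261452 CPM in spleen, and the lymphocyte miR-150-5p had 422.8 CPM in liver, against 604.9 to 27986 CPM. On total reads, none of the erythroid or endothelial members stood 4-fold from the median either way, and of the leukocyte members only miR-150-5p did, at 0.18 times. Without miR-122-5p in the totals, miR-126a-5p (5.398-fold) and miR-144-3p (4.38-fold) stood at least 4-fold over the median, and miR-150-5p was at 0.26 times. With TMM the erythroid miR-451a and miR-144-5p also passed 4-fold, at 4.88 and 4.73.

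The mesenchymal list, which holds markers of stellate cells and smooth muscle, was below the median for all 5 members on total reads and for 4 with TMM, with a list median of -0.97 on total reads and no member at or below 0.25 times the median. miR-143-3p had 10135 CPM in liver, against 4644 to 174725 CPM in the others. Of the 4 pancreatic names, miR-375-3p was at 0.11 times the median. miR-216a-5p, miR-216b-5p and miR-217-5p were at 1.89, 2.22 and 0.91 times it, from 26, 26 and 19 liver reads. The list median was 0.39, and the 4 summed to 110 CPM in liver, against 2.67 to 9296 CPM. With TMM 2 of the 4 stood at least 4-fold over the median and 1 at or below 0.25 times it. Of the 7 neuronal names, 6 were at or below 0.25 times the median and 1, miR-137-3p, at least 4-fold over it, with a list median of -4.90. With miR-122-5p reads left out of the totals, 5 were low, miR-128-3p being at 0.36 times the median, and miR-137-3p was still the high one. All 7 names of the striated muscle list lay within 4-fold of the median on total reads, with a list median of 0.79. Strands of muscle hairpins outside this list, miR-1a-1-5p, miR-1a-2-5p and miR-208a-5p, were among the 22 names at least 4-fold over it. In the list, miR-1a-3p was 4.23-fold over the median without miR-122-5p in the totals, and miR-206-3p 5.17-fold with TMM.

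Among the 30 names of the imprinted Dlk1-Dio3 region, 29 were below the median and 14 at or below 0.25 times it, with a list median of -1.96. Without miR-122-5p in the totals 28 were below the median and 6 at or below 0.25 times it, and with TMM 29 and 8. Their sum was 450 CPM in liver, against 416 CPM in kidney, a median of 1855 CPM and 56783 CPM in spinal cord. Kidney was thus as low as liver. The metabolic intronic list, with miR-33, miR-378a, miR-103 and miR-107, had a median of 0.01 and no member past 4-fold. miR-33-5p, hosted by the sterol regulator gene Srebf2, had 225.8 CPM in liver, against 28.2 to 1137 CPM, and miR-378a-3p, hosted by Ppargc1b, had 4275 CPM, against 594 to 35735 CPM. The 9 let-7 names had a median of -0.45, which was 0.08 without miR-122-5p in the totals. The miR-101, miR-148 and miR-152 list had 2 of 6 members at least 4-fold over the median, miR-101b-3p and miR-148a-5p, and a median of 1.27. There were 3 without miR-122-5p in the totals, with miR-148a-3p at 5.46-fold.

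**Figure D4:**
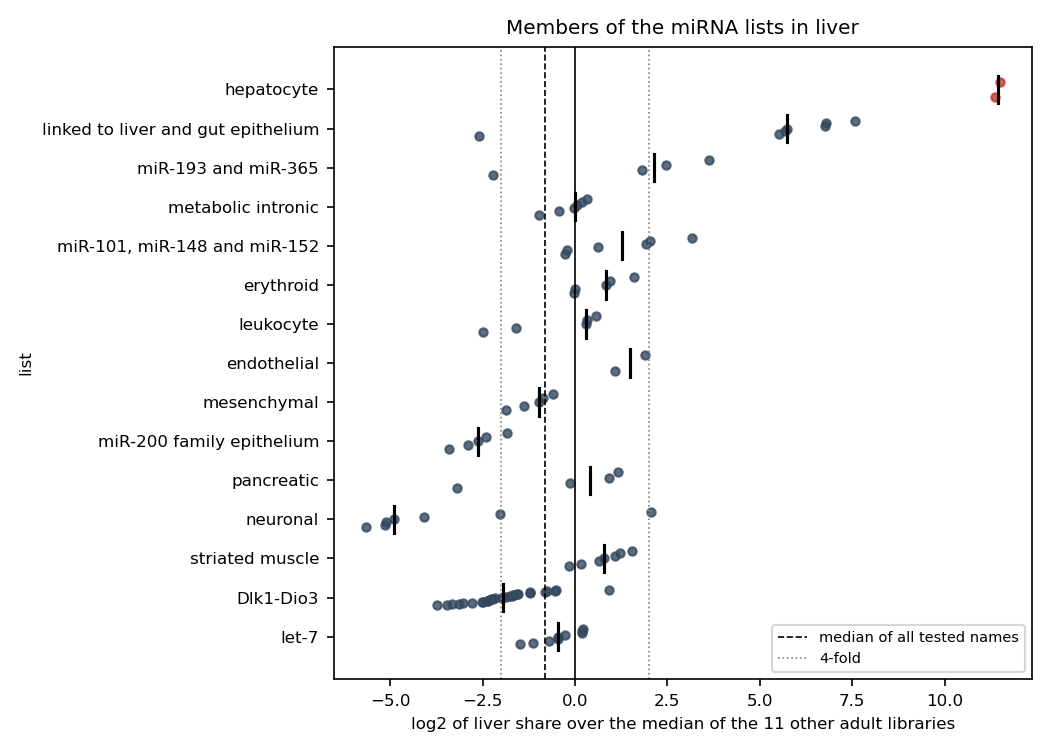
Each point is a tested member of a list, placed at the log2 of its liver share over the median of the 11 other adult libraries, and black bars are list medians. The hepatocyte strands lie above 11, the neuronal list has its median at -4.90, and the dashed line marks the median of all tested names with a ratio, at -0.81.

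Liver held a narrow set of miRNAs for its depth. Thinned to the 148052 reads of testis, it would be expected to show 440 names, against 437 in heart and 486 in lung to 686 in testis among the rest. Without miR-122-5p the expected number was 480, and only heart, at 436, stayed below it. The 10 most abundant names held 59.97% of liver reads, against 27.9% in testis to 56.4% in smooth muscle. Without miR-122-5p they held 44.9% in liver, which lay within the 27.97% to 56.4% of the others. Across the 579 names, which are not independent of each other and share library totals, the Spearman correlation of log2(CPM + 1) with liver was highest for kidney at 0.92 and lowest for testis at 0.44.

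The embryo libraries, which the ranking did not use, carried more miR-122 than most adult tissues. miR-122-5p stood at 1062, 11059 and 12092 CPM at 11, 15 and 17 days, and miR-122-3p at 18.6, 240.7 and 461.3 CPM. The later stages lay above all 11 other adult libraries for both strands, and all 3 lay under liver. miR-193a-3p had 189.4, 294.1 and 566.1 CPM and miR-802-5p 5.31, 37.5 and 197.7 CPM in the same order. The embryo values come from whole embryos, 1 library a stage.

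Arm usage in liver differed little from the other tissues. The 5p share is the part of a hairpin's reads, in percent, that come from its 5p arm, and 183 hairpins had at least 20 reads over both arms in liver and in at least 5 others. The median absolute difference between the liver share and the median of the others was 0.86 points, and 12 hairpins differed by more than 10 points. Liver was highest for 16 hairpins, lowest for 15 and within the others for 152. In 2 of the 183 (1.09%), mir-126a and mir-376b, the liver interval overlapped that of no other library. By the same rule 0 hairpins (eye and spleen) to 8 (stomach) were found in the other adult libraries.

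mir-126a, an endothelial hairpin, used its 5p arm more in liver than elsewhere. Its share was 30.6% in liver (30.1 to 31.0, 45038 reads), against 16.9% in smooth muscle, a median of 21.0% and 27.8% in spleen (27.3 to 28.3). The embryos had 23.4%, 24.0% and 19.2% at 11, 15 and 17 days. Spleen was 2.78 points under liver, and lung, at 24.3%, came next. The 3p strand remained the major strand in every library.

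mir-376b of the Dlk1-Dio3 region used its 5p arm less in liver. Its share was 13.95% in liver (7.42 to 23.1), from 12 of 86 reads, against 36.6% in salivary gland (29.2 to 44.5), a median of 50.6% and 63.95% in spinal cord, over 10 libraries. Testis, with 9 reads, did not count. The embryos, at 6.89%, 8.05% and 13.0%, overlapped liver, so liver stood apart from the adult libraries but not from these. With 99% intervals mir-376b no longer stood apart.

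Other hairpins far from the median had intervals that overlapped those of at least 1 other library. mir-154 of the same region had 52.3% in liver (36.7 to 67.5, 44 reads), against 60.9% to 88.9% in the others. mir-199b had 7.79% in liver (6.88 to 8.78), against 8.85% in spleen (8.24 to 9.49) and 28.4% in eye, but its 3p strand is shared with mir-199a. mir-324, a hairpin known for switching arms, had 32.8% in liver (27.0 to 39.0, 250 reads), against a median of 46.5%, and stomach was lower at 26.3%. The dominant arm in liver differed from that of the median for 3 hairpins, mir-376b, mir-423 and mir-501. The liver intervals of the last pair took in 50%, and their shares were 48.2% and 52.9%.

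The hairpins that set liver apart by level did not stand apart by arm usage. mir-122 had 96.98% 5p in liver (96.94 to 97.03), against 94.1% in brain to 98.2% in salivary gland. In testis, where miR-122-5p was highest among the others, the share was 96.3% (94.0 to 97.8). mir-192 had 98.2% in liver, against 95.6% in stomach to 98.9% in heart, and mir-802 had 96.4% in liver, against 94.8% to 100% in the 6 others with at least 20 reads. mir-193a had 5.14% in liver (4.45 to 5.90), against 2.79% in spleen to 23.3% in spinal cord. Each of these liver shares lay within those of the other libraries.

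**Figure D5:**
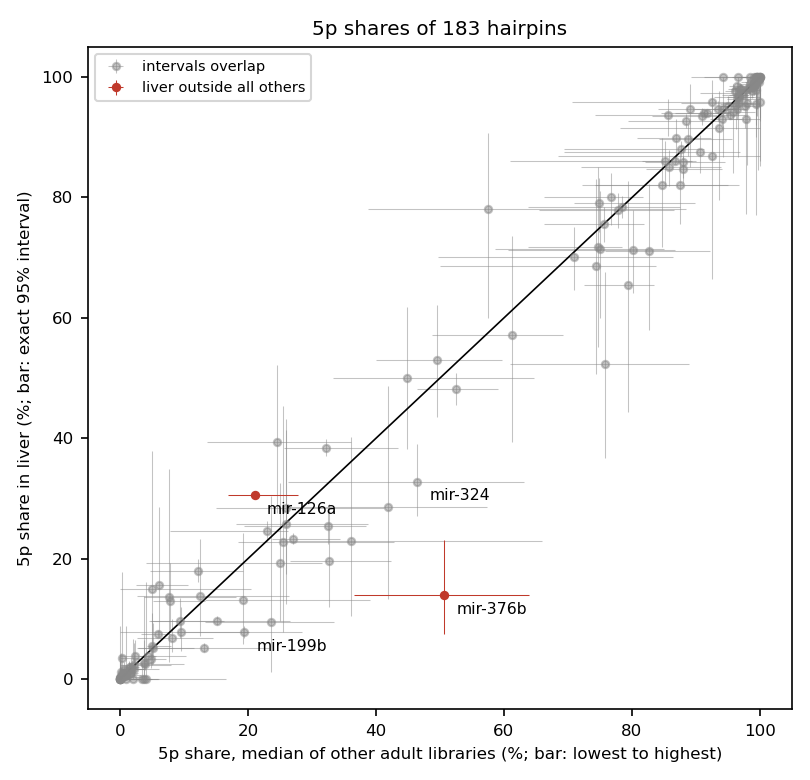
The 5p share of each of 183 hairpins in liver (vertical, with its exact 95% interval) against the median of the other adult libraries with at least 20 reads (horizontal, with a bar from the lowest to the highest). Most points lie on the line of equal shares, and the 2 red points, mir-126a above it and mir-376b below it, are those whose liver interval overlapped no other.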

How the data were processed

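The deposited files give raw read counts per mature miRNA name, per the file headers. Per the submitters' processing notes, the tools were bcl2fastq 1.8.4, cutadapt, bedtools and BWA, on build mm10. The sources used here give neither the role of each, nor the miRNA annotation release, nor how reads with several loci were treated. The labels' protocols describe added spike-in RNAs, which were not used here. Names not listed in a library were taken as 0. Shares (CPM) were computed on the raw total of each library. A value of 0 in a ratio was set to 3 reads per library, and no ratio was given where both sides were at or under that. Where the median of the others is used, its interval is that of the library at the median.

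Totals without miR-122-5p leave its reads out of every library. TMM and relative log expression factors came from edgeR 4.0.16 in R 4.3.3, for scaling only; other steps used Python 3.11.15 and scipy 1.17.1, and were tested on simulated data. Intervals are exact (Clopper-Pearson, and its conditional form for ratios of 2 libraries).

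The comparison and the miRNA lists were chosen with earlier results of these data known. Names were chosen by rule: those at least 2-fold over the highest other library, the 15 lowest against the median, the 10 most abundant in liver, list members and hairpins standing apart. The other names were chosen after their values were seen. RefSeq gave sequences for 499 of the 579 tested names. Host genes come from GENCODE M21 (GRCm38).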

Additional observations from a re-analysis of the deposited data

How the results depend on the processing

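Scaling decided the number of names. Those at least 2-fold over the highest other library were 3 on total reads, 6 without miR-122-5p in the totals, 6 with TMM, 8 with relative log expression scaling, 12 with no minimum level, 5 without smooth muscle and testis, and 3 to 5 when each other library was left out. Without kidney the 5 included miR-193a-3p and miR-455-5p. The original 3 were among the names found with each of these scalings and with no minimum. Those at least 4-fold over the median were 22, then 34, 44 and 46 under the 3 scalings in the same order, 36 with no minimum, 10 with a minimum of 100 CPM, 11 at 8-fold and 18 to 25 when each library was left out. Those at or below 0.25 times the median were 100, then 63, 61 and 51 under the scalings, 63 with a minimum of 100 CPM, 45 at 8-fold, 161 with the embryos among the others and 93 to 125 when each library was left out. The median log2 ratio shifted by 0.54, 0.57 and 0.76 under the 3 scalings. Hairpins standing apart were 2, but 1 with 99% intervals, 1 with the embryos added and 2 to 3 when each library was left out, mir-199b joining without spleen. Of 544 further values of single miRNAs, 429 moved by less than counting error or not at all, and 115 by more. Counting error was taken here as the log2 width of the value's own interval, divided by 2, so values with wide intervals could hardly exceed it. A ratio to the highest library cannot change when another library is left out, so many of the 429 were fixed in advance. The 544 values cover the 22 names at least 4-fold over the median and the 12 for which liver was highest, and no low names. No ratio to the median changed direction. With the embryos among the others, the ratio to the highest library fell from 1.16 to 0.304 for miR-130a-3p and from 1.33 to 0.257 for miR-130a-5p. The share of miR-122-5p in liver reads was 31.2% of all reads and also of the reads of the tested names. At 922137 reads liver was expected to show 660 names. Beyond the scalings, whose construction sets the shift, the cause was not tested. The 148052 reads of testis limit every comparison with it. No paired analysis was possible because each tissue has 1 library.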
